A study of Mus musculus with 6 samples.

Results

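Tissue kallikreins are serine proteases, most of them trypsin-like, that are secreted as inactive precursors. The best known, Klk1, releases vasoactive kinins from kininogen. The mouse genome holds a tandem array of Klk1b genes beside Klk1 whose products cut other proteins, such as growth factor precursors, prorenin and binding proteins. Klk1b21, Klk1b24 and Klk1b27 are known from earlier work as products of testicular Leydig cells, the interstitial cells that make testosterone. Klk1b22 is an epidermal growth factor binding protein and Klk1b26 a prorenin-converting enzyme, both best known from the submandibular gland.

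The account covers 6 genes, Klk1, Klk1b21, Klk1b22, Klk1b24, Klk1b26 and Klk1b27, chosen by the gene name given to each non-control probe in the scanner files, out of 34844 different names in that field. They are read by 7 of the 55681 probes on the array, 2 of them for Klk1b26 and 1 for each other gene. RNA came from the whole testis of 8-week-old C57BL/6 mice, 3 homozygous knockouts of Gipr (the receptor for the gut hormone GIP) and 3 wild-type mice, with 1 array per mouse. The labels do not say how the knockout was made or whether the mice were littermates. All 7 probes were well above background on all 6 arrays and all 7 were tested.

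The labels were checked on the Gipr probe, which read 155, 145 and 176 in the knockout testes against 782, 820 and 1043 in the wild-type testes (processed signal, linear). The difference was -2.48 ± 0.12 (log2, SE; limma adjusted p = 0.00311), and without knockout replicate 2 it was -2.46 with an adjusted p of 0.064. The labels do not name the deleted part, so whether this probe lies inside it is unknown here, and it shows only that the arrays separate by label. Between 70.6% and 76.0% of the spots on an array were well above background. All 6 arrays lie on 1 slide, the knockout arrays in slide row 1 and the wild-type arrays in slide row 2, so an effect of the row and one of genotype cannot be told apart. Haploid germ cell markers such as Prm1 were bright on every array, with a summed level of 1874.0 to 2097.7 in knockout mice and 1937.6 to 2065.7 in wild-type mice (multiples of the 75th percentile signal of the array).

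The members' probes are shown first because the genes are close copies of each other. The letters compare probes with probes, not with the transcripts of the other genes, so they do not measure how specific a probe is. Each is a 60-base sequence, written 5′ to 3′. Capitals mark the bases that differ from the most similar other probe of the Klk1 and Klk1b family, over their best overlap without gaps. Bases outside that overlap were not compared and are also in lower case.
Klk1b21: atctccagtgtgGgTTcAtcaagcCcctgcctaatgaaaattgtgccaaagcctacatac
Klk1b24: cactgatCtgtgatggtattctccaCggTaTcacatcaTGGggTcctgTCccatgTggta
Klk1b27: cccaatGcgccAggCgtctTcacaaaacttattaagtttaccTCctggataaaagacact
Klk1: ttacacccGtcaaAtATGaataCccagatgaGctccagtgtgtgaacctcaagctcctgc
Klk1b22: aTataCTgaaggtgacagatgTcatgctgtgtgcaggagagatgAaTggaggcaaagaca
Klk1b26: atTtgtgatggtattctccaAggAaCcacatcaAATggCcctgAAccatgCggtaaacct

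The Klk1b27 probe differs at 6 of 60 bases from the probe for Klk1b11. The Klk1b21 probe shares 30 of 35 overlapping bases with the Klk1b4 probe, and the Klk1 probe shares 48 of 55 with the same probe. The Klk1b22 probe shares 41 of 47 overlapping bases with the Klk1b3 probe, and the Klk1b24 and Klk1b26 probes share 44 of 55 with each other. The second Klk1b26 probe is identical over 55 overlapping bases to a probe that the files name Egfbp2. RefSeq lists Egfbp2 as an older symbol of Klk1b26, but the naming rule left that probe out of the members. Whether transcripts of 1 member also bind the probe of another was not tested, and each value below is the reading of a probe, which may include near-identical relatives.

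On mouse build mm9, as given in the files, the member probes lie on chromosome 7. Klk1b21 is read at chr7:51361257-51361316, Klk1b24 at chr7:51447637-51447696 and Klk1b27 at chr7:51311959-51312018. Klk1b22 is read at chr7:51371648-51371707, and Klk1b26 at chr7:51272156-51272215 and chr7:51272272-51272331. The Klk1 probe covers chr7:51484170-51484325, a span of 156 bases for a 60-base probe, so its alignment is split on the genome. All are on the plus strand. The Gipr probe is on the same chromosome, 31.5 to 31.7 Mb away. Exon and UTR boundaries on this build were not used here.

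None of the 6 genes passed the test between genotypes. All 7 probes were lower on average in the knockout, with differences from -0.20 to -0.57 (log2, knockout minus wild type), but 0 of 7 reached an adjusted p under 0.05 in limma and 0 of 7 an unadjusted p under 0.05. Over all tested probes, 0.0463% passed at an adjusted p under 0.05, 0.0411% as lower and 0.00514% as higher, and 7.66% had an unadjusted p under 0.05. A difference below 0 was seen for 47.2% of all tested probes. The median difference of the members was -0.29, against a median of 0.009 over all 38884 tested probes. For 1 probe in groups of this size, the smallest p that exact permutation allows is 0.1.

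**Figure D1:**
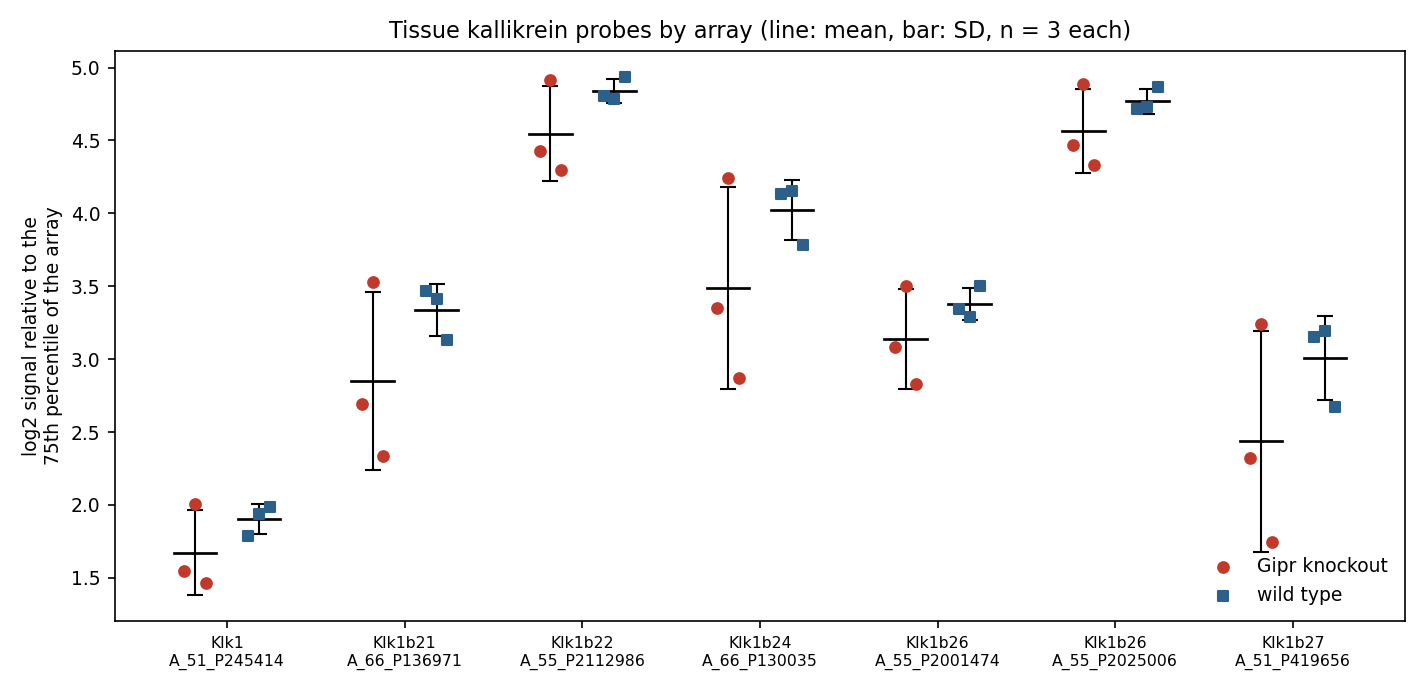
Log2 signal relative to the 75th percentile of the array for each of the 7 member probes, with 3 Gipr knockout arrays (circles, left) and 3 wild-type arrays (squares, right), the mean as a line and the SD as a bar. In each probe 2 knockout arrays lie below all wild-type arrays and the other lies among or above them, so the groups overlap for 7 of 7 probes.

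Klk1b27 encodes a Leydig cell kallikrein with chymotrypsin-like specificity, and it had the widest range of the members. The processed signals of knockout replicates 1, 2 and 3 were 3928, 6798 and 2574, against 6584, 6775 and 4917 for the wild-type replicates. The lowest and the highest reading both came from knockout testes, 2.83-fold apart once each array was scaled to its 75th percentile. On that scale, in log2, the knockout mean was 2.44 ± 0.76 and the wild-type mean 3.01 ± 0.29 (SD, n = 3 each). The difference was -0.57 ± 0.38 (log2, SE; limma adjusted p = 0.704), a fold of 0.674 with a 95% interval of 0.359 to 1.265.

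Klk1b24, a second Leydig cell kallikrein, gave a like picture. It read 8046, 13582 and 5618 in knockout mice and 12991, 13210 and 10611 in wild-type mice. Knockout replicates 1 and 3 were below every wild-type array, whereas knockout replicate 2 exceeded all of them. The means were 3.49 ± 0.70 in knockout mice and 4.02 ± 0.21 in wild-type mice (log2, SD, n = 3 each), with a difference of -0.53 ± 0.34 (SE; limma adjusted p = 0.697). Klk1b24 and Klk1b27 are the 2 of 7 probes with a difference of -0.5 or lower, a size that 1.37% of all tested probes reached.

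Klk1b21 is the Leydig cell kallikrein known to cut fibronectin and the IGF-binding protein Igfbp3. Its signal was 5085, 8282 and 3875 in knockout mice and 8190, 7888 and 6769 in wild-type mice. The order of the knockout animals was that of the previous genes. The means were 2.85 ± 0.61 in knockout mice and 3.34 ± 0.18 in wild-type mice (log2, SD, n = 3 each), and the difference was -0.49 ± 0.30 (SE; limma adjusted p = 0.693).

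Klk1, the kinin-releasing enzyme, spread less. It read 2296, 2883 and 2119 in knockout mice and 2557, 2849 and 3051 in wild-type mice, a range of 1.46-fold after scaling. The knockout averaged 1.67 ± 0.29 and the wild type 1.90 ± 0.10 (log2, SD, n = 3 each). The difference was -0.23 ± 0.15 (log2, SE; limma adjusted p = 0.702). Knockout replicate 2 lay inside the wild-type range on the linear scale and above it after scaling to the 75th percentile, at 2.01 against 1.79, 1.94 and 1.99.

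Klk1b22, the epidermal growth factor binding protein, read 16959, 21692 and 15093 in knockout mice and 20666, 20420 and 23618 in wild-type mice. The knockout averaged 4.55 ± 0.33 and the wild type 4.84 ± 0.08 (log2, SD, n = 3 each), and the difference was -0.29 ± 0.16 (log2, SE; limma adjusted p = 0.679). Among the 7 probes this was the lowest adjusted p, and the groups still overlapped through knockout replicate 2.

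Klk1b26, the prorenin-converting enzyme, was read by both of its probes in the same way. The probe at base 693 of the transcript gave 6655, 8138 and 5466 in knockout mice and 7514, 7250 and 8738 in wild-type mice. The probe at base 809 gave 17443, 21273 and 15484 in knockout mice and 19417, 19658 and 22429 in wild-type mice. Within each probe, knockout replicates 1 and 3 were below all wild-type arrays and replicate 2 was not. For the first probe the knockout averaged 3.14 ± 0.34 and the wild type 3.38 ± 0.11, and for the second 4.56 ± 0.29 and 4.77 ± 0.08 (log2, SD, n = 3 each). Their differences, -0.24 ± 0.17 and -0.20 ± 0.15 (log2, SE; limma adjusted p = 0.723 and 0.724), are closer to each other than either SE. The Egfbp2 probe of the same gene gave -0.24 (adjusted p = 0.708).

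A single order of the knockout animals ran through the whole group. Knockout replicate 3 was the lowest of the 6 arrays for 7 of 7 probes, but how many of all tested probes share that was not counted. Knockout replicates 1 and 3 lay below every wild-type array for 7 of 7. That placing was chosen after the values were seen, and 16.9% of all tested probes share it. After scaling, knockout replicate 2 was the highest array for 5 probes and wild-type replicate 3 for the other 2. The groups did not overlap for 0 of 7 probes, against 5.49% of all tested probes lower without overlap and 7.87% higher without overlap.

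The members differed strongly between arrays for probes of their brightness. The SD over the 6 arrays was 0.60 for Klk1b27, 0.54 for Klk1b24 and 0.48 for Klk1b21 (log2), against a median of 0.128 over all tested probes. Among probes within 0.5 log2 units of the same brightness, 99.8%, 99.6% and 99.7% had a smaller SD than these genes in that order. For the other 4 probes the SD was 0.22 to 0.27, above that of 97.3% to 99.0% of probes of like brightness.

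**Figure D2:**
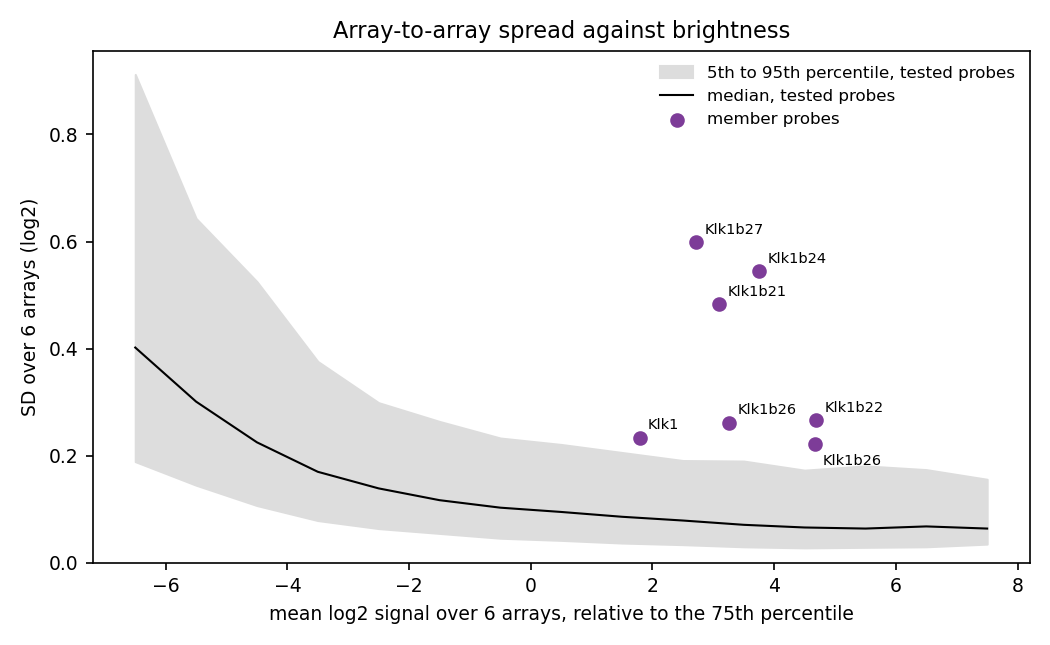
SD over the 6 arrays (log2) against mean log2 signal relative to the 75th percentile, with the median of all tested probes as a line, their 5th to 95th percentile as a grey band and the 7 member probes as points. All 7 points lie above the band, and Klk1b27, Klk1b24 and Klk1b21 lie highest at 0.60, 0.54 and 0.48.

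This spread came mainly from the knockout. The SD within the knockout was 2.62 to 3.87 times that within wild-type mice across the 7 probes, and it was the larger SD in 7 of 7. Over all tested probes, the knockout had the larger SD in 56.7%, and 17.2% reached a ratio at least as high as the lowest member. The 7 probes follow the same 6 animals and sit in 1 gene cluster, so they are not 7 independent readings of this spread.

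The differences depended on 2 knockout animals. Without knockout replicate 2, the differences of Klk1b27, Klk1b24 and Klk1b21 were -0.97, -0.91 and -0.82, and that of Klk1 was -0.40 (log2). The unadjusted p for the 7 probes then lay between 0.00239 and 0.0129, and the lowest adjusted p was 0.245, so 0 of 7 passed. In that setting, 13.8% of all tested probes had an unadjusted p under 0.05 and 0.0102% passed adjustment. Without knockout replicate 3, the same 4 genes stood at -0.22, -0.23, -0.23 and -0.13, and the 2 Klk1b26 probes at -0.09 each. Without knockout replicate 1 or any wild-type replicate the values moved less.

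**Figure D3:**
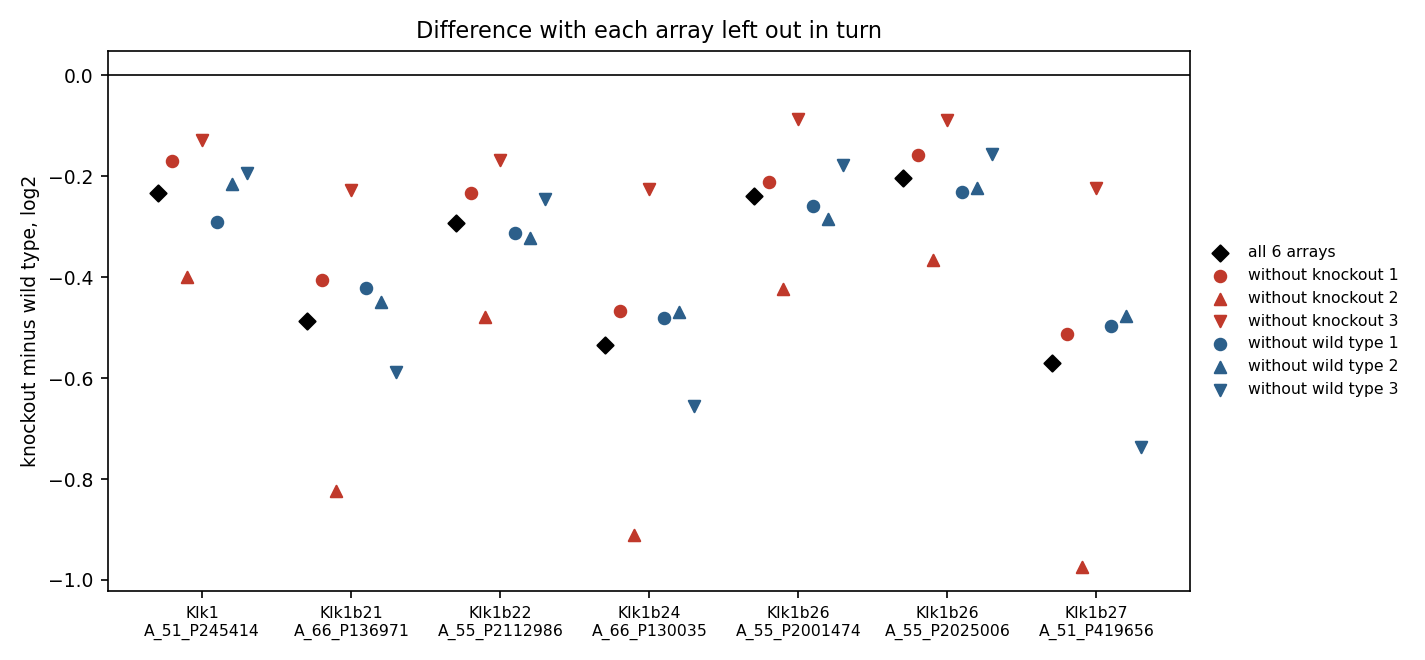
Knockout minus wild type (log2) for each member probe over all 6 arrays (diamonds), without each knockout array (red) and without each wild-type array (blue). All values lie below 0, and leaving out knockout replicate 2 or 3 moves them most, to -0.97 and -0.22 for Klk1b27.

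The 3 genes known from Leydig cells shared a lowest wild-type animal that the other members did not. For Klk1b21, Klk1b24 and Klk1b27, wild-type replicate 3 was the lowest wild-type array, whereas for Klk1, Klk1b22 and both Klk1b26 probes it was the highest. As deviations from the mean over 6 arrays, the 3 Leydig genes averaged -0.40, 0.48 and -0.87 in the knockout replicates and 0.39, 0.39 and 0.01 in the wild-type replicates (log2). The other 3 genes, each by its brightest probe, averaged -0.23, 0.22 and -0.35 in knockout mice and 0.05, 0.10 and 0.21 in wild-type mice. Over the 6 arrays, Pearson's r between pairs of genes was 0.992 to 0.997 among the 3 Leydig genes, 0.970 to 0.992 among the other 3, and 0.842 to 0.904 across, a description of arrays from the same 6 animals. On each array, the average of the Leydig genes minus that of the other 3 genes was -0.17, 0.26 and -0.52 in the knockout replicates and 0.34, 0.29 and -0.21 in the wild-type replicates, so the genotypes overlapped. Between genotypes this contrast differed by -0.29 (log2, knockout minus wild type; exact permutation p = 0.4), which does not bear on the grouping. The grouping was made after the values were seen and was not itself tested.

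**Figure D4:**
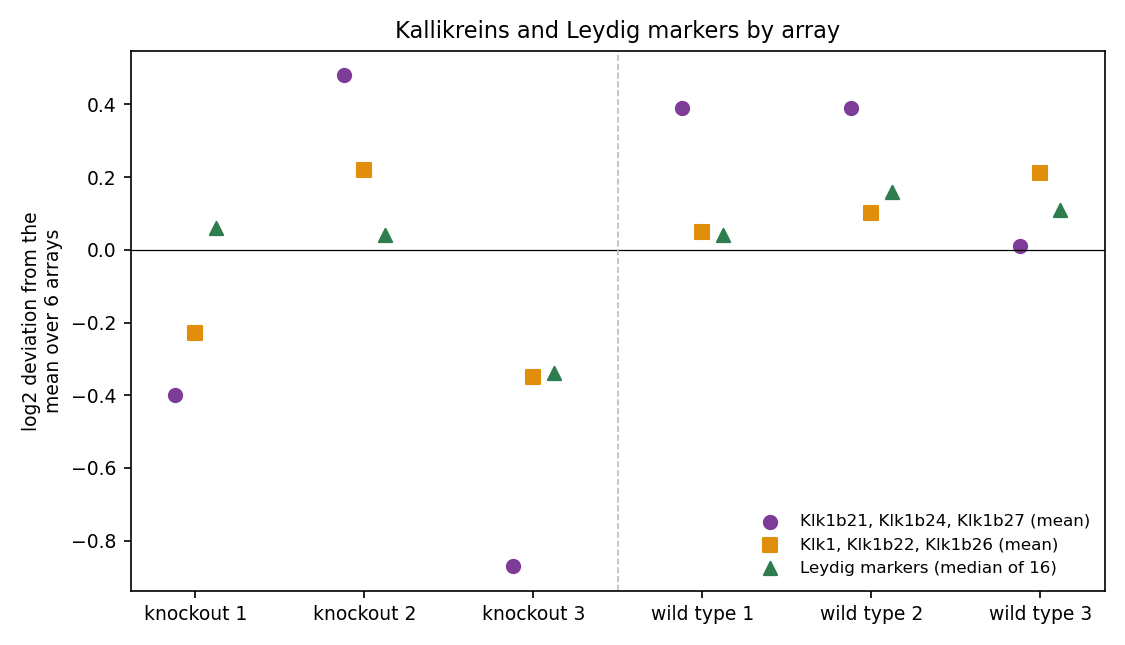
Deviation from the mean over 6 arrays (log2) on each array, for the mean of Klk1b21, Klk1b24 and Klk1b27 (circles), the mean of Klk1, Klk1b22 and Klk1b26 (squares) and the median of 16 Leydig markers (triangles). Knockout replicate 3 is lowest in all 3, at -0.87, -0.35 and -0.34, while knockout replicate 1 is low for the kallikreins (-0.40 and -0.23) and not for the Leydig markers (0.06).

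The median of the Leydig markers did not follow the kallikreins on every array, and single markers did so only in part. Of its 17 genes, 16 were tested. Of these, 14 were lower on average in the knockout (median -0.22), 2 had an unadjusted p under 0.05 as lower, against 3.25% of all tested probes, and 0 passed adjustment in limma. Hsd17b3, the last enzyme of testosterone synthesis, read 0.32, 0.94 and -0.14 in knockout mice and 1.09, 1.04 and 1.22 in wild-type mice (log2). Its difference was -0.74 ± 0.26 (SE; limma adjusted p = 0.639) and -0.48 without knockout replicate 3. Hsd3b6, a steroid dehydrogenase of Leydig cells, read -0.01, 0.77 and -0.38 in knockout mice and 0.45, 0.94 and 1.16 in wild-type mice. For both, knockout replicates 1 and 3 were below every wild-type array, as for the kallikreins, a placing that 16.9% of all tested probes share. For Hsd17b3 knockout replicate 2 was below them too. Wild-type replicate 3 was the highest wild-type array for both, as for Klk1, Klk1b22 and Klk1b26, whereas it was the lowest for the 3 Leydig kallikreins. The summed level of the list was 95.4 to 107.9 in knockout mice and 109.9 to 113.4 in wild-type mice. Its brightest gene, Fdx1, made up 27.4% to 30.9% of it. Without Fdx1 the sums were 65.9 to 76.2 in knockout mice and 76.8 to 82.4 in wild-type mice. None of the 16 was at 0, since all had passed the background filter. Insl3 was not analysed here. On knockout replicate 1 the median marker stood at 0.06, where the 3 Leydig kallikreins stood at -0.40. In whole testis, fewer Leydig cells and less RNA per Leydig cell cannot be told apart, and the part of either in the kallikrein values was not tested.

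Other cell markers also differed between arrays, with 0 calls in any of these lists in limma. Sertoli cell markers were higher in the knockout for 10 of 11 genes (median 0.10, lowest adjusted p = 0.612), and 4 of 11 were higher without overlap, against 7.87% of all tested probes. Their summed levels were 208.4 to 228.4 in knockout mice and 189.7 to 200.6 in wild-type mice, of which Rhox8 made up 52.0% to 59.2%. Without Rhox8 the sums overlapped, at 88.5 to 98.9 in knockout mice and 77.8 to 93.2 in wild-type mice.

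Macrophage markers were lower for 7 of 9 (median -0.16). Their summed levels, 124.8 to 148.3 in knockout mice and 140.8 to 148.8 in wild-type mice, were 93.0% to 94.5% Aif1, and the other 8 genes summed to 7.1 to 8.6 in knockout mice and 8.2 to 9.8 in wild-type mice. Peritubular myoid markers were higher for 5 of 6 (median 0.08). Their sums, 58.0 to 68.4 in knockout mice and 64.0 to 68.5 in wild-type mice, were 69.4% to 78.7% Actg2, the 1 gene that was lower, and the other 5 genes summed to 14.6 to 17.7 in knockout mice and 15.2 to 15.9 in wild-type mice. Endothelial markers were lower for 5 of 8 and summed to 6.7 to 7.5 in knockout testes, against 7.5 to 7.7 in wild-type testes, of which Kdr made up 71.1% to 72.7%. The 3 blood cell markers summed to 17.2, 8.2 and 15.9 in knockout replicates 1, 2 and 3 and to 7.2, 10.1 and 10.5 in wild-type mice. Of these sums, Hba-a1 made up 41.9% to 48.7%. The high and low readings of the haemoglobin genes Hba-a1 and Hbb-b1 in the knockout stood opposite to its kallikrein readings. Alas2 did not, at 1.36, 1.25 and 1.16 in knockout replicates 1, 2 and 3 (log2). The part of these cells in the kallikrein values was not tested.

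The rest of the Klk1b cluster showed a like order of the knockout arrays. Another 10 probes of the array read other Klk1b genes, the pseudogene Klk1b7-ps or Egfbp2, and 9 were tested. All 9 were lower on average in the knockout, lowest on knockout replicate 3, and below every wild-type array on knockout replicates 1 and 3, but 0 passed in limma. Wild-type replicate 3 was their highest wild-type array, except for Klk1b7-ps. There it was the lowest, as for the Leydig kallikreins, though by little (1.751, 1.833 and 1.740 in wild-type replicates 1, 2 and 3, log2). Klk1b16 gave -0.40 ± 0.18 (log2, SE; adjusted p = 0.654) and Klk1b11 -0.42 ± 0.22 (adjusted p = 0.665). Klk1b9, an epidermal growth factor binding protein, gave -0.32 and Klk1b8 -0.26 (adjusted p = 0.677 and 0.683). Without knockout replicate 2, Klk1b16, Klk1b11, Klk1b9 and Klk1b8 were -0.60, -0.68, -0.53 and -0.41. Without knockout replicate 3, Klk1b11, Klk1b9 and Klk1b8 were -0.25, -0.20 and -0.12. Klk1b3 and Klk1b4, the gamma and alpha subunits of the nerve growth factor complex, gave -0.30 and -0.23, and the pseudogene Klk1b7-ps gave -0.10, all named after their values were seen. Given the similarity of the probes, these are not independent of the members.

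**Figure D5:**
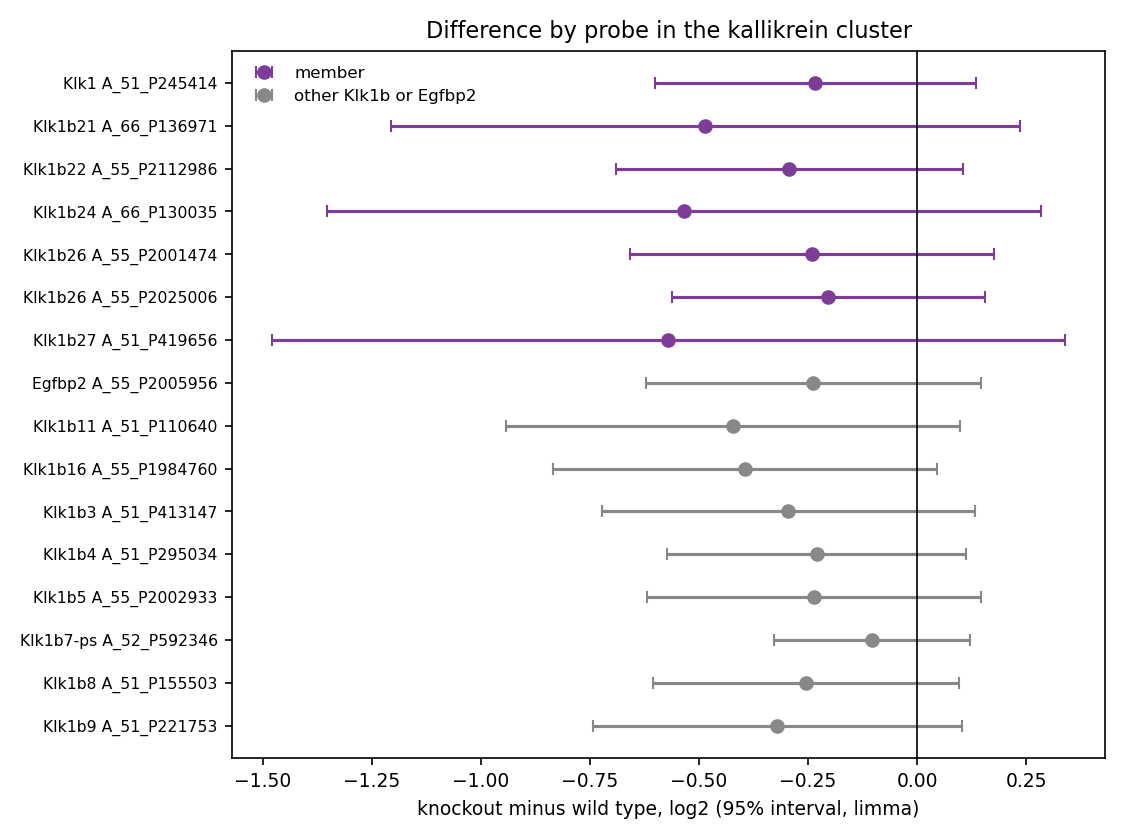
Knockout minus wild type (log2, limma) with its 95% interval for the 7 member probes (purple) and 9 other tested probes of the Klk1b cluster (grey). All 16 estimates lie below 0 and all 16 intervals include 0, the widest being that of Klk1b27 (-1.48 to 0.34).

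The kallikrein-related peptidases Klk4 to Klk15 flank the cluster. Of 12 genes, 6 passed the background filter and were tested, 3 higher and 3 lower, and 0 passed in limma. Klk4, an enamel protease, gave 0.22 ± 0.09 and Klk8, a protease of brain and skin, 0.64 ± 0.29 (log2, SE; adjusted p = 0.649 and 0.653). Both were dim, with processed signals of 21 to 27 for Klk4 and 6 to 19 for Klk8 over the 6 arrays. Klk9 gave 0.08 ± 0.15 and Klk12 -0.09 ± 0.20, and both changed sign when single knockout arrays were left out. With normexp background correction Klk4 was 0.04 and Klk8 0.11, and Klk8 was 0.34 without wild-type replicate 2.

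In the kinin pathway, where Klk1 acts on kininogen and peptidases remove the kinins, 14 of 16 genes were tested. Of these, 9 were lower and 5 higher (median -0.07), and 0 passed in limma. The aminopeptidase gene Xpnpep2 gave -0.43 ± 0.19, the carboxypeptidase gene Cpd 0.12 ± 0.06, the kininogen gene Kng1 -0.23 ± 0.13 and the kininase gene Ace -0.19 ± 0.12 (log2, SE; adjusted p = 0.653, 0.658, 0.680 and 0.696). Kng1 read -0.89, -0.66 and -1.17 in knockout mice and -0.69, -0.65 and -0.70 in wild-type mice, so the substrate gene was also lowest on knockout replicate 3. Kng1 was -0.35 without knockout replicate 2, and without knockout replicate 3 Kng1 was -0.10 and Ace -0.08. Xpnpep2 was -0.22 with array weights.

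Among serpins and other inhibitors, 11 of 16 genes were tested, 9 lower and 2 higher (median -0.20). Of these, 3 had an unadjusted p under 0.05, all lower, against 3.25% of all tested probes, and 0 passed in limma. They were Serpina1c at -0.31 ± 0.08, Serpina3c, a kallikrein-binding serpin, at -0.60 ± 0.22, and Serpina1a at -0.25 ± 0.10 (log2, SE; adjusted p = 0.571, 0.639 and 0.642). Serpina3g gave -0.79 ± 0.34 (adjusted p = 0.649). Without knockout replicate 3, Serpina3c was -0.38 and Serpina1a -0.16. Serpina1 genes are close copies, and whether their probes share signal was not tested.

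Of 11 genes for proteins that kallikreins cut or bind, all 11 were tested, 4 lower and 7 higher (median 0.01), and 0 passed in limma. The angiotensinogen gene Agt gave -1.41 ± 0.58 (log2, SE; adjusted p = 0.649). It read -0.03, 1.72 and -0.54 in knockout mice and 1.78, 1.35 and 2.23 in wild-type mice, so knockout replicates 1 and 3 were low and knockout replicate 2 was within the wild-type range. Igfbp6, Igfbp1 and Egf gave 0.14 ± 0.11, 0.34 ± 0.29 and 0.37 ± 0.33 (adjusted p = 0.733, 0.755 and 0.757). Each depended on single arrays. Without knockout replicate 1 Igfbp6 was 0.06 and Egf 0.59. Without knockout replicate 2 Igfbp6 was 0.23 and Igfbp1 0.59. Without knockout replicate 3 Igfbp1 was 0.11 and Egf -0.02. Igfbp1 was 0.12 without wild-type replicate 1, and Igfbp6 0.08 without wild-type replicate 3.

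Over the 6 arrays, the genes most like the mean of the members were P2ry14, a receptor for UDP-sugars (Pearson r = 0.998), Spic, a transcription factor of macrophages (0.987), the carbonic anhydrase gene Car2 (0.984), Pdzd8 (0.983), the ammonium transporter gene Rhbg (0.982) and Ubl4b (0.980). They were taken from 2680 genes with a symbol and an SD of at least 0.2, of which 4.55% had r of at least 0.9. Those most like Klk1 were the kinase gene Pdk4 (0.992), Nlrc5 (0.989), Snhg11 (0.988) and Klk1b5 (0.987). These are descriptions of 6 arrays that share the same animals, with no test.

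The promoters are shown because the 3 Leydig kallikreins, grouped after their values were seen, also resemble each other upstream. RefSeq promoter windows (build GRCm38.p6, 250 bases before to 50 after the gene start) were found for all 6 members, all on the plus strand of chromosome 7. RefSeq lists the Klk1b21 gene at chr7:44004616-44106583, and the start used for its window is not the start of that span but lies near its end. Between Klk1b21, Klk1b24 and Klk1b27, 91.3% to 97.7% of aligned bases were identical, against 80.5% to 86.7% between these genes and the other 3 members. Other pairs of the cluster reach 92.8%. The longest stretch shared letter for letter by the 3 genes is 89 bases long and stands in no other window of the 32851 in the table. It lies at chr7:44102177-44102265 for Klk1b21, chr7:44188086-44188174 for Klk1b24 and chr7:44052153-44052241 for Klk1b27. The closest counterpart among the other members is in Klk1b26, at chr7:44012532-44012620, and is set under it with its 15 differing bases in capitals.
Klk1b21: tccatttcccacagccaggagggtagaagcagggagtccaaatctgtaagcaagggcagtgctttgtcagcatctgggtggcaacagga
Klk1b26: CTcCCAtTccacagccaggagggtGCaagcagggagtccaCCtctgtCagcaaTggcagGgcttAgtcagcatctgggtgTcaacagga

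In the best placement without gaps, Klk1b22 differed from the shared stretch at 27 bases and Klk1 at 31. Motifs were searched on both strands of the whole window. TATAAA and TGACG (the core of a cAMP response element) were found in 0 of 6 members, against 13.6% and 20.8% of all windows. AAGGTCA, bound by steroidogenic factor 1, was found in Klk1b21 and Klk1, 247 and 206 bases before the gene start, against 4.7% of all windows. The copies do not sit at the same place in their windows. The shared stretch or its counterpart begins at -115 in Klk1b21 and -71 in Klk1, but at -137 to -161 in Klk1b27, Klk1b26, Klk1b24 and Klk1b22. Bases beyond the windows were not searched, so whether these genes hold the motif farther upstream is unknown here. AGAACA (part of an androgen response element) was found in Klk1b24, against 19.0%, and CCAAT in Klk1b21, Klk1b24, Klk1b26 and Klk1, against 37.4%. These are matches of letters and carry no measurement of binding.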

How the data were processed

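The deposited scanner files hold 1-colour (Cy3) spot intensity values from Agilent arrays, per the file headers. They were made with Agilent Feature Extraction 10.7.3.1, per the submitters' processing notes. Its processed signal is background-corrected and linear. The authors' value list is an intensity table equal to the processed signal times 1 factor per array that sets the median to 200, and it served as an alternative. Outlier spots (117 to 149 per array) were left out, log2 values were averaged per probe and scaled by subtracting the array's own 75th percentile. Probes well above background on all 3 arrays of a group (38884) were tested with limma 3.58.1 (R 4.3.3), two-sided, Benjamini-Hochberg over all tested probes, without covariates. A list gene is read by its brightest tested probe. List genes were matched by the name in the files or a unique older RefSeq symbol, and up to 4 per list with the lowest p were named, with all members, Gipr, and the 6 genes most like the members and 4 most like Klk1 by Pearson r. Members and lists were chosen with earlier results of these data known. Slide columns equal the replicate numbers. The alternatives were normexp, quantile normalization, the authors' value list, other filters, trend and robust eBayes, array weights, 1 probe per gene, a replicate block and leaving out each array. The values of 1 listed gene are not reported here.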

Additional observations from a re-analysis of the deposited data

How the results depend on the processing

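Under 15 alternatives, all 104 fits of a member probe stayed below 0 and none passed, with adjusted p from 0.245 to 0.934 in limma. The median member difference of -0.29 ranged from -0.478 to -0.167 when 1 array was left out. Over all probes, 18 were called, against 30 with normexp, 7 without a filter on dim probes, 35 with trend and robust eBayes, 29 with array weights, 6 with the replicate block and 4 to 26 without 1 array. Same-numbered arrays correlated at 0.058, -0.024 and -0.003 in their deviations from the group means. These values gave no sign that the numbers pair the samples, but with so few arrays they cannot show that no pairing exists. The replicate block changed no member's call. Gipr was -2.46 without knockout replicate 2 and missed the threshold (adjusted p = 0.064). Leaving out 1 array gave differences from -2.55 to -2.37 for it. Leaving out 1 array gave -0.044 to 0.213 for Klk9 (lowest without knockout replicate 1), -0.323 to 0.032 for Klk12 (above 0 without knockout replicate 2, 0.011, or 3) and -0.024 to 0.591 for Egf (lowest without knockout replicate 3), and array weights gave 0.137 for Klk12. The cause of these changes was not tested. With 3 animals per group, the number of arrays limits precision.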
